A study of Mus musculus with 2 samples.

Results

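Lyz1 and Lyz2 are the 2 mouse genes for secreted lysozyme, and they were measured as 2 of 32285 genes in single cells from the lamina propria of the colon, the connective tissue beneath the gut epithelium. Both rows were taken from the count matrices by symbol, whatever their level. The study set mice whose floxed Runx3 is removed by Cre under Lyz2 control (RUNX3fl/fl-Lyz2-Cre) beside RUNX3fl/fl littermates. This driver would be expected to act in cells that carry Lyz2 transcript or whose precursors did. There were 2 libraries, titled Runx3_fl and Runx3, with 1 library per group. The labels give the cells of both as cd11b+ and the tissue as gut, and the study describes pooled adult male mice. Both titles name the floxed gene, neither states Cre, and no genotype was read from the values. With 1 library per group, differences between libraries have no replicate check and no p-value is given. Each interval given is a 95% interval for counting error alone.

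Lysozyme cuts the peptidoglycan wall of bacteria. Mouse Lyz2, the M form, is the lysozyme of monocytes, macrophages and neutrophils and is also packed into the granules of developing neutrophils. Lyz1, the P form, is best known from Paneth cells of the small intestine. Because Lyz2 is strongly transcribed in myeloid cells, its locus is widely used to drive Cre there; Cre placed in this way is active where the locus is or has been active, and a recombined allele is passed on to daughter cells that no longer carry the transcript.

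The genes are neighbours on the minus strand of chromosome 10. In GRCm38 with GENCODE M21 annotation, Lyz2 (ENSMUSG00000069516) spans 117277331 to 117282321 and Lyz1 (ENSMUSG00000069515) spans 117287797 to 117292868. Each has 4 exons, is protein coding and overlaps no other annotated gene, and 5475 bases lie between them. Their transcripts are close copies: the coding sequences are 95% identical over 444 aligned bases, and the last 500 bases, which 3' libraries mostly read, are 97.4% identical over 495 aligned bases. Of the 411 windows of 90 bases in that end of Lyz2, 15 occur without a difference in Lyz1. Reads from such windows cannot be placed on either gene, and a read with few mismatches can be placed on the wrong copy, so low Lyz1 counts beside high Lyz2 counts are uncertain.

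The upstream sequences of both genes are shown because Lyz2 and Lyz1 differed so much in level in the same cells and because RUNX3 is a DNA-binding factor. The 201 bases that end 50 bases before the RefSeq start lie at chr10:117282322-117282522 for Lyz2 and chr10:117292918-117293118 for Lyz1 (RefSeq, GRCm38.p6, minus strand, intergenic in the annotation). Both genes matched an entry of the promoter table. Capitals mark ACTTCCTG, a motif of the ETS type that PU.1 and its relatives bind, and TGTGGT, the core RUNX motif, here on the strand opposite to the one printed.
Lyz2: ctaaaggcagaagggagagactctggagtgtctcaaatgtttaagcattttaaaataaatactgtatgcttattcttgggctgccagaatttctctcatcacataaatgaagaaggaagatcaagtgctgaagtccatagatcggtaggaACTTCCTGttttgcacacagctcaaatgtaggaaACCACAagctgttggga
Lyz1: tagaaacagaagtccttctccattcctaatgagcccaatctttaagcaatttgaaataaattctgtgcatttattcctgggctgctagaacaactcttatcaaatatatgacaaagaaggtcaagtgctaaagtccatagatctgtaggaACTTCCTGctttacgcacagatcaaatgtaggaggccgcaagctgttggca

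Over 199 aligned bases 151 were identical, or 75.9%. Searched on both strands, ACTTCCTG occurred in both windows, starting 100 bases before the RefSeq start in each, and in 1.88% of the same windows of all 32851 promoters. TGTGGT occurred in the Lyz2 window, starting 66 bases before the start, and not in that of Lyz1; 11.6% of all promoters held it. TTGCNNAA, a motif of the C/EBP type, occurred in the Lyz1 window and not in that of Lyz2, and in 8.17% of promoters. The RUNX and ETS motifs do not overlap. These matches describe letters only.

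After the study's limits on cells (200 to 6000 genes and at most 15% mitochondrial UMIs), 11885 of 12968 cells were kept in the Runx3_fl-labelled library and 8167 of 8953 in the Runx3-labelled one. The deposited totals were 146204416 and 75478164 UMIs (unique molecular identifiers, which count each captured RNA molecule once), with medians of 9573 and 5731 UMIs per kept cell. The libraries shared 37 cell barcodes. Xist, the RNA of the inactive X chromosome of female cells, was at 31.8 to 423 CPM in the 7 main classes of the Runx3_fl-labelled library that had over 1 cell and at 0 to 1.38 CPM in the 8 classes of the Runx3-labelled one, although the study describes male mice. This difference cannot be told apart from the groups. Although the label is cd11b+, both libraries held NK, T and B cells, and Itgam, the gene for CD11b, was at 41.0 CPM in T cells and 26.9 CPM in B cells of the Runx3_fl-labelled library.

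Cells were put into classes by marker genes. A class needed a UMI of its leading gene and UMIs of at least 2 of its supporting genes; cells that met more than 1 gate were set aside as mixed. Levels are CPM, the gene's UMIs per 1000000 UMIs summed over the cells of a class, a scale on which 3' UMI counts do not grow with transcript length. The monocyte class (Ly6c2, without the macrophage gate) held 1150 cells in the Runx3_fl-labelled library and 1432 in the Runx3-labelled one, the macrophage class (C1qa) 567 and 754, conventional dendritic cells (Flt3) 659 and 184, and mature neutrophils (Cxcr2) 437 and 201. NK cells (Ncr1) numbered 1313 and 81, T cells (Cd3e) 2422 and 302, and B cells (Cd79a) 135 and 1005. Immature neutrophils (Ngp) numbered 1 and 217, so they are described in the Runx3-labelled library only. Mixed cells numbered 1386 and 1543, and 3562 and 2298 cells met no gate.

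Lyz2 was highest in monocytes, macrophages and, with the gate used here, immature neutrophils. In the Runx3_fl-labelled library it stood at 3918 CPM (95% Poisson interval 3885 to 3951) in monocytes and 3093 CPM (3053 to 3134) in macrophages. In the Runx3-labelled library it stood at 3270 CPM (3190 to 3351) in immature neutrophils, 1415 CPM (1393 to 1436) in monocytes and 1128 CPM (1104 to 1152) in macrophages. The place of immature neutrophils depended on the gate: with a UMI of Ngp alone as gate they stood at 241 CPM, below the 1403 CPM of monocytes and 969 CPM of macrophages so gated, and as a mean over cells they stood at 2129 CPM. The order of monocytes above macrophages was the same in both libraries, with intervals that did not overlap.

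Mature neutrophils held far less Lyz2 than these classes. Their level was 188 CPM (167 to 211) in the Runx3_fl-labelled library and 229 CPM (196 to 267) in the Runx3-labelled one. Conventional dendritic cells, the Flt3-dependent antigen-presenting cells, came next in the Runx3_fl-labelled library, at 124 CPM (118 to 131). They stood in the Runx3-labelled library at 32.4 CPM (25.3 to 41.0), and their interval overlapped those of B and T cells. With 3 supporting genes asked for, they stood at 77.5 CPM, above the 34.3 CPM of B cells and 31.2 CPM of T cells so gated.

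Lymphocytes gave the level against which these values were read, since B and T cells are not known to make lysozyme. Lyz2 in the Runx3_fl-labelled library was at 19.3 CPM (11.5 to 30.6) in B cells, 15.1 CPM (12.9 to 17.5) in NK cells and 11.5 CPM (10.4 to 12.7) in T cells. The levels in the Runx3-labelled library were 38.7 CPM (33.9 to 44.1) in B cells, 27.3 CPM (21.4 to 34.4) in T cells and 24.5 CPM (14.8 to 38.3) in NK cells. Neighbours in these orders overlapped, except NK and T cells of the former. Mature neutrophils of both libraries lay above every lymphocyte class, whereas dendritic cells of the Runx3-labelled library did not with 2 supporting genes asked for.

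**Figure D1:**
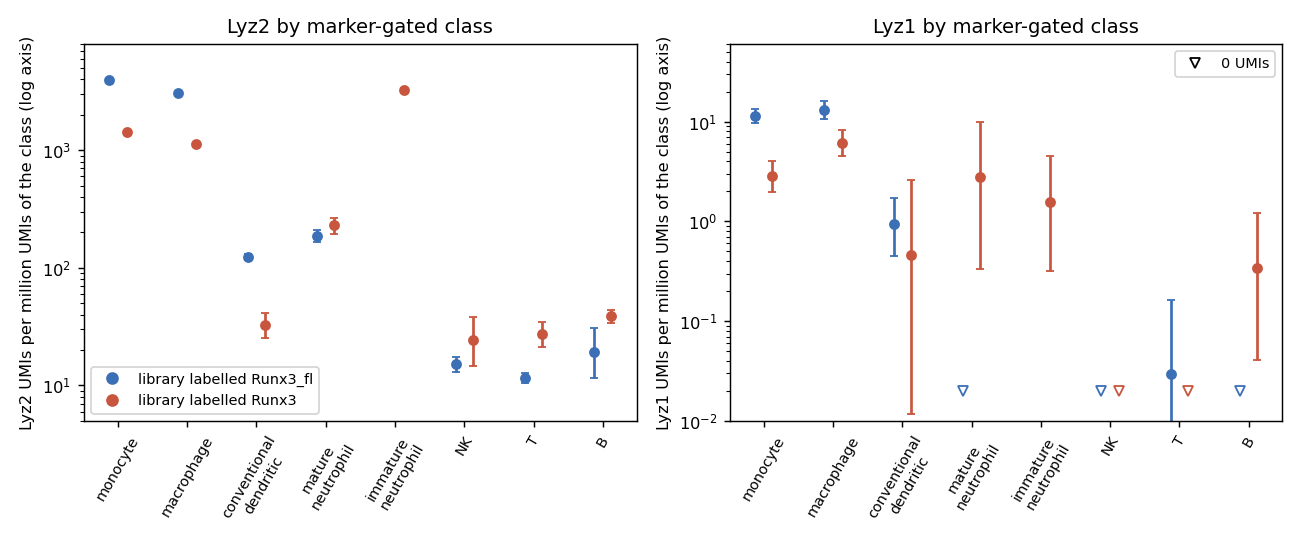
Lyz2 (left) and Lyz1 (right) in CPM of each marker-gated class, on log axes that differ between the panels; points are class sums, bars are 95% Poisson intervals and open triangles mark 0 UMIs. Immature neutrophils of the Runx3_fl-labelled library, with 1 cell, are not drawn. Lyz2 is above 1000 in monocytes and macrophages of both libraries and below 50 in every lymphocyte class, while no class exceeds 14 for Lyz1.

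The share of cells with a Lyz2 UMI depends on depth. Each cell was therefore also thinned to 2000 UMIs, and 616 and 1868 cells of lower depth were not used in the Runx3_fl-labelled and Runx3-labelled libraries. In the former, 95.4% of macrophages had a Lyz2 UMI before thinning and 85.8% (Clopper-Pearson interval 82.7 to 88.6) after it, and 89.4% and 76.4% (73.8 to 78.8) of monocytes did. In the latter the shares were 77.1% and 57.1% (53.2 to 60.9) of macrophages and 70.9% and 58.2% (55.3 to 61.0) of monocytes. Those of immature neutrophils were 75.6% and 77.5% (69.7 to 84.0). The thinned share of immature neutrophils rests on 142 of 217 cells, since 75 were below 2000 UMIs. Some cells in the classes with the most Lyz2 thus had none at this depth, and no order of monocytes and macrophages is read from shares, which in the Runx3_fl-labelled library went against the CPM.

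Mature neutrophils had a Lyz2 UMI in 28.4% of cells of the Runx3_fl-labelled library and 30.8% of those of the Runx3-labelled one, and in 20.1% (16.2 to 24.3) and 23.6% (17.4 to 30.9) after thinning. Dendritic cells had one in 40.4% and 26.1% of cells, at median depths of 14778 and 11045 UMIs, and in 13.3% (10.8 to 16.1) and 6.11% (3.09 to 10.7) after thinning. B cells, with median depths of 6020 and 5502 UMIs, gave 10.4% and 17.4% before thinning and 3.76% (1.23 to 8.56) and 7.01% (5.48 to 8.80) after it. The thinned share of dendritic cells in the Runx3-labelled library had an interval that overlapped that of B cells. With all deposited barcodes the shares were 8.84% and 6.54%, in the opposite order.

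Within the classes Lyz2 varied over a wide range. At 2000 UMIs per cell, monocytes of the Runx3_fl-labelled library held a median of 5 Lyz2 UMIs and at most 51; 23.6% had none and 12.3% had 20 or more. Macrophages of that library held a median of 4 and at most 32, with 14.2% at 0 and 4.54% at 20 or more. Monocytes and macrophages of the Runx3-labelled library held a median of 1, with 41.8% and 42.9% of cells at 0. Immature neutrophils there held a median of 4.5, and 71 of 142 cells had 5 or more. Among mature neutrophils 79.9% of the Runx3_fl-labelled library had none and 0.752% had 5 or more.

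**Figure D2:**
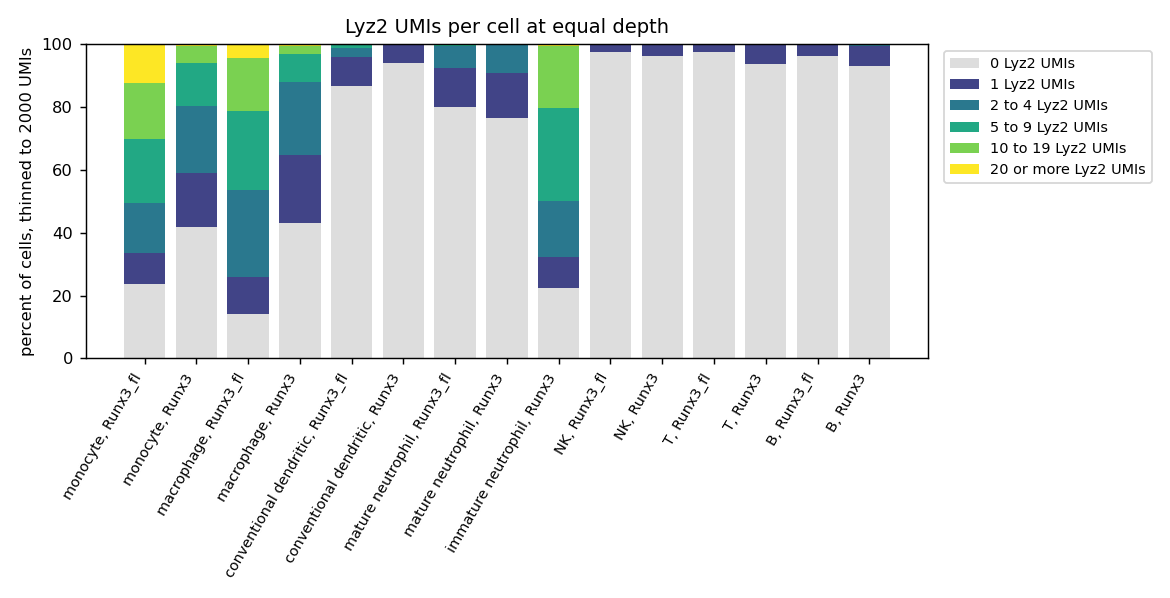
Percent of cells by number of Lyz2 UMIs after each cell was thinned to 2000 UMIs, for each class and library; each bar adds to 100% and grey is the share with none. From 12.1% to 50.5% of monocytes, macrophages and immature neutrophils have 5 or more UMIs, and grey covers over 90% of NK, T and B cells.

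Monocytes and macrophages together were 14.4% of the kept cells of the Runx3_fl-labelled library and held 74.7% (Clopper-Pearson interval 74.44 to 74.96) of its 104595 Lyz2 UMIs. Those of the Runx3-labelled library were 26.8% of cells and held 49.5% (49.1 to 49.9) of 50562. Neutrophils of both kinds held 0.281% (0.250 to 0.315) and 12.8% (12.5 to 13.1). NK, T, B and plasma cells held 0.652% and 0.698%, although they were 34.4% and 18.0% of cells. Mixed cells held 19.5% and 34.5%. Of those UMIs, 99.1% and 97.5% lay in mixed cells that met the monocyte or macrophage gate. Mixed cells of a neutrophil gate held 18.2% and 50.7% of them, and those of a lymphoid gate 63.1% and 44.1%. Since mixed cells met more than 1 gate, these shares overlap and do not place the UMIs in 1 class. Over all kept cells the Lyz2 level was 767 CPM (762 to 772) in one library and 771 CPM (765 to 778) in the other, with overlapping intervals, while single classes differed. With the leading gene alone as gate, monocytes and macrophages held 37.7% and 10.4%.

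Lyz2 was lower in monocytes and macrophages of the Runx3-labelled library than in those of the Runx3_fl-labelled library. The log2 ratio of Runx3 over Runx3_fl, with 1 CPM added, was -1.47 (-1.49 to -1.44) in monocytes, a 2.77-fold difference, and -1.45 (-1.49 to -1.42) in macrophages, a 2.74-fold difference. The median over all genes compared (at least 50 CPM in a library) was 0.07 in each class. In monocytes 43 of 3665 genes had a lower ratio than Lyz2, and 3.11% of the genes were lower by 2-fold or more. In macrophages 62 of 3723 genes had a lower ratio, and 4.46% were lower by 2-fold or more.

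Other genes of these cells moved in both directions. Nos2, Il6 and Il12b, genes of inflammatory macrophages, were lower by 2-fold or more in both classes. Their log2 ratios were -2.58, -2.12 and -3.20 in monocytes and -1.80, -2.17 and -3.21 in macrophages. They came from a list of 8 genes of macrophage subtypes, of which 6 reached 50 CPM in monocytes and 7 in macrophages. Cx3cr1 of that list was higher by 2-fold or more in both classes, beside 6.93% and 7.9% of all genes. Csf1r, Adgre1 and Cd68, genes of these classes, were not lower, and of these Csf1r and Adgre1 were supporting genes of a gate. Ratios of the other marker genes of the gates are not given here. Csf1r, the receptor for the growth factor of macrophages, had log2 ratios of 0.38 in monocytes and 0.35 in macrophages. Adgre1, the gene for F4/80, had 0.60 and 0.86, and Cd68, a lysosomal glycoprotein, had 0.33 and 0.63. At 2000 UMIs per cell the mean number of Lyz2 UMIs was 7.73 and 2.50 in monocytes and 5.83 and 1.95 in macrophages of the Runx3_fl-labelled and Runx3-labelled libraries. The direction was thus the same at equal depth.

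In dendritic cells the log2 ratio was -1.91 (-2.31 to -1.59), from 1326 and 70 UMIs; 7 of 3658 genes had a lower ratio and 1.67% were lower by 2-fold or more. With 2 supporting genes asked for, the level in the Runx3-labelled library lay among those of lymphocytes. With 3 it lay above them, and the ratio was -0.73. In mature neutrophils the ratio was 0.28 (0.00 to 0.57), from 290 and 166 UMIs, and the median of all genes was 0.18. There 8.78% of 2825 genes were higher and 3.54% lower by 2-fold or more, and Lyz2 was in neither set. In lymphocytes the ratios were above 0, at 0.97 (0.31 to 1.78) in B cells, 1.18 (0.86 to 1.61) in T cells and 0.66 (-0.07 to 1.39) in NK cells, where the interval held 0.

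In lymphocytes S100a8 was higher in the Runx3-labelled library, as Lyz2 was, while genes of macrophages differed by class. S100a8, a calcium-binding protein that neutrophils make in large amounts, was at 3.75 to 4.59 CPM in B, NK and T cells of the Runx3_fl-labelled library and at 92.5 to 123 CPM in those of the Runx3-labelled one. In T cells C1qa was at 1.76 and 9.86 CPM and Csf1r at 1.41 and 15.6 CPM in the same order of libraries. B cells had C1qa at 9.67 (4.42 to 18.4) and 11.8 CPM (9.23 to 15.0), with overlapping intervals, and Csf1r at 2.15 and 12.9 CPM. NK cells had C1qa at 1.59 and 3.87 CPM and Csf1r at 3.36 and 7.75 CPM, each with overlapping intervals. Their Adgre1 went the other way, from 2.21 to 0 CPM, also with overlapping intervals. In the Runx3-labelled library the number of Lyz2 UMIs per S100a8 UMI was 0.253 in NK cells, 0.295 in T cells, 0.315 in B cells and 0.282 in plasma cells, with overlapping intervals. Dendritic cells of that library had 0.476 (0.353 to 0.637), and this interval overlapped those of NK (0.145 to 0.424), T (0.224 to 0.385) and B cells (0.270 to 0.366). Dendritic cells of the Runx3_fl-labelled library had 10.0 (8.39 to 12.1), against 3.29 (2.40 to 4.58) in NK cells and 3.07 (2.51 to 3.78) in T cells, while B cells at 4.5 (1.48 to 18.3) and plasma cells at 20.0 (8.29 to 62.9) had intervals that overlapped it. The ratio thus differed between libraries, and the source of the UMIs in lymphocytes was not tested. What free RNA adds to the Lyz2 level of each class was not tested further than by subtracting the B cell level.

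Among cells of the monocyte and macrophage classes, Lyz2 was highest where Ly6c2 was present. In the Runx3_fl-labelled library it was at 3945 CPM in monocytes with no C1qa UMI, 3508 CPM (3459 to 3557) in macrophages with a Ly6c2 UMI and 1663 CPM (1601 to 1727) in macrophages with no Ly6c2 UMI. The Runx3-labelled library gave 1443 CPM, 1134 CPM (1109 to 1160) and 1073 CPM (1000 to 1149). The last 2 of these overlapped. Ly6c2 marks monocytes newly arrived from blood and is lost as they become tissue macrophages.

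Macrophages with a UMI of Mrc1, the mannose receptor, had Lyz2 at 2868 CPM against 3153 CPM in those without in the Runx3_fl-labelled library, and at 1291 CPM against 1044 CPM in the Runx3-labelled one, and the order thus differed between libraries. Macrophages with Nos2, the inducible nitric oxide synthase, had 2843 CPM in 127 cells of the former and 724 CPM (661 to 792) in 41 cells of the latter, against 3180 and 1167 CPM without it. These subdivisions rest on a UMI of 1 gene and are ranges, not cell types.

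The monocyte gate also held cells with transcripts of dendritic cells. Of the 1150 monocyte-gate cells of the Runx3_fl-labelled library, 584 had a UMI of Flt3, Zbtb46 or Ccr7, and their Lyz2 level was 2681 CPM against 5588 CPM (5528 to 5648) in the other 566. The level was 1091 CPM in 508 such cells and 1701 CPM (1669 to 1734) in the other 924 of the Runx3-labelled library. Without these cells the log2 ratio between libraries was -1.72 in monocytes and -1.49 in macrophages.

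Among dendritic cells, those with Xcr1 or Clec9a, which mark the cross-presenting type, had the most Lyz2 in the Runx3_fl-labelled library, at 174 CPM (164 to 186) in 263 cells. Those with Cd209a or Clec10a had 123 CPM (103 to 145) in 81 cells, and those with both Ccr7 and Fscn1, which mark the migratory state, had 35.7 CPM (26.5 to 47.1) in 121 cells. Levels in the Runx3-labelled library were 52.6, 35.3 and 11.6 CPM in 28, 55 and 35 cells, from 21, 26 and 4 UMIs, with overlapping intervals between neighbours in that order.

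Lyz2 followed the granule genes within the immature neutrophil gate of the Runx3-labelled library. The 71 thinned cells with 5 or more Lyz2 UMIs had Ngp at 36829.8 CPM, Camp at 27943 CPM and Ltf at 11089 CPM, all proteins of neutrophil granules, and Cebpe, a transcription factor of granule gene expression, at 395 CPM. These genes belong to the gate itself. The 39 cells with 1 to 4 had Ngp at 17605 CPM and Cebpe at 236 CPM. The 32 cells with none had Ngp at 806 CPM and Cebpe at 39.9 CPM, and they also had H2-Ab1, an antigen-presentation gene, at 2108 CPM against 80.6 CPM in the cells with most Lyz2. Median depths of these sets were 16139, 8496 and 4129.5 UMIs. In the mature class, which was at 229 CPM of Lyz2 in that library, Camp was at 45.6 CPM and Ngp at 42.8 CPM.

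Lyz1 was detected at a small fraction of the level of Lyz2. Over all kept cells there were 295 Lyz1 UMIs in 87 cells of the Runx3_fl-labelled library and 166 in 85 cells of the Runx3-labelled one. These were 0.281% (0.250 to 0.315) and 0.327% (0.279 to 0.381) of the UMIs of both genes. Of the cells with Lyz1, 95.4% and 87.1% also had Lyz2, and 82.8% and 87.1% were monocytes, macrophages or mixed cells.

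In macrophages Lyz1 was at 13.1 CPM (10.6 to 16.0) in the Runx3_fl-labelled library and 6.17 CPM (4.53 to 8.21) in the Runx3-labelled one. In monocytes it was at 11.4 CPM (9.70 to 13.3) and 2.84 CPM (1.96 to 3.99). Immature neutrophils, among the classes richest in Lyz2, had 3 Lyz1 UMIs beside 6312 of Lyz2, a share of 0.0475% (0.0098 to 0.139), against 0.544% (0.400 to 0.723) in macrophages and 0.200% (0.138 to 0.281) in monocytes of the same library. The counting intervals of immature neutrophils and macrophages thus did not overlap. They treat each UMI as independent, while the 47 Lyz1 UMIs of these macrophages lay in 24 cells. The macrophage share also depended on the gate, at 0.367% with 3 supporting genes and 1.32% with the leading gene alone. NK cells had 0 Lyz1 UMIs in both libraries, which allows levels of up to 0.265 and 3.87 CPM (3 counts). The 16 and 33 cells of the epithelial gate had 0, which allows up to 56.5 and 17.0 CPM.

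Much of the Lyz1 signal came from few cells. Among cells of the Runx3_fl-labelled library, 8 cells with 5 or more UMIs held 63.4% of all Lyz1 UMIs, and 1 monocyte-gate cell held 51. The Runx3-labelled library had 6 such cells, which held 38.0%, and at most 19 lay in 1 cell. Counting intervals therefore understate how far Lyz1 levels would shift with other cells. The log2 ratio of Lyz1 between libraries was -1.69 in monocytes (162 and 33 UMIs) and -0.98 in macrophages (95 and 47 UMIs), and Lyz1 was below 50 CPM in both classes and so not among the genes compared.

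Cells with Lyz1 were rich in Lyz2. In the Runx3_fl-labelled library the 33 monocytes with a Lyz1 UMI had Lyz2 at 7150 CPM (6921 to 7385) against 3796 CPM in those without, and the 20 macrophages with Lyz1 had 6216 CPM (5926 to 6517) against 2969 CPM. The Runx3-labelled library had 2415 against 1398 CPM in monocytes and 2591 against 1048 CPM in macrophages. Their median depth was also higher, at 16481 against 12103 UMIs in monocytes of the former library and 16230.5 against 8837.5 UMIs in macrophages of the latter. Among macrophages with Mrc1, 8.85% and 5.47% of cells had a Lyz1 UMI, against 2.20% and 2.35% of those without. At equal depth the shares were 3.57% (0.98 to 8.89) and 1.04% (0.13 to 3.69), against 0.456% (0.055 to 1.64) and 0.858% (0.234 to 2.18), with overlapping intervals in each library. Of the 62 Lyz1 UMIs in macrophages with Mrc1 of the Runx3_fl-labelled library, 33 lay in 1 cell.

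The other genes of the family were nearly silent. Lyzl4 had 19 and 104 UMIs in the Runx3_fl-labelled and Runx3-labelled libraries, Lyzl1 had 14 and 5, Lalba, the milk protein alpha-lactalbumin that evolved from lysozyme, had 5 and 12, and Lyzl6, Spaca3, Spaca5, Lyg1 and Lyg2 had between 0 and 8 each. Of the 10 family members, Lyz2 was the sole gene above 50 CPM in monocytes or macrophages.

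The median ratio of genes behind Cre drivers lay above 0 in monocytes and macrophages, as did that of all genes compared. Of 17 genes behind drivers, Lyz2 included, 9 reached 50 CPM in monocytes of a library and 9 in macrophages. In each class Lyz2 was the only member lower by 2-fold or more, beside 3.11% of all genes in monocytes and 4.46% in macrophages. That no other member was lower is thus near the background. Cx3cr1 and S100a8 were higher by 2-fold or more, beside 6.93% of all genes in monocytes and 7.9% in macrophages. The list's median log2 ratio, over the members that reached 50 CPM, was 0.38 in monocytes and 0.61 in macrophages. The median over all genes compared was 0.07 in each class. The S100a8 level was also higher in lymphocytes of the Runx3-labelled library, as given above.

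**Figure D3:**
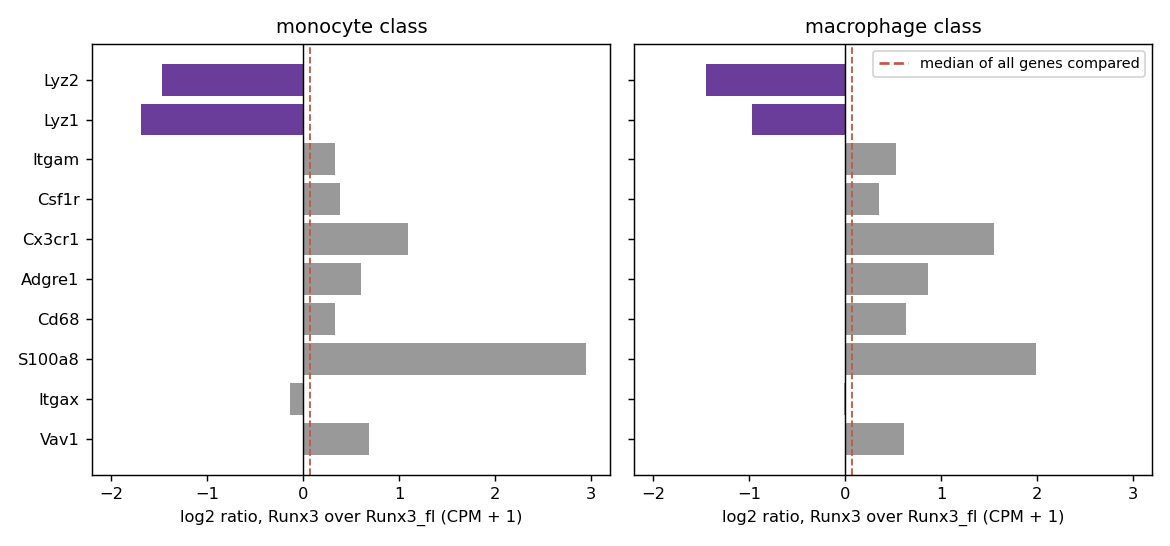
Log2 ratio of CPM plus 1, Runx3-labelled library over the Runx3_fl-labelled one, for Lyz2, Lyz1 and 8 genes behind other Cre drivers in monocytes (left) and macrophages (right); bars start at 0 and the dashed line is the median of all genes compared. The lysozyme bars point down to between -1.69 and -0.98, and the lowest of the others, Itgax in monocytes, stands at -0.14.

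Across classes the reach of Lyz2 differed from that of the other driver genes. Csf1r was at 255 CPM in monocytes and 329 CPM in macrophages of the Runx3_fl-labelled library, 94.7 CPM in its mature neutrophils and 1.41 to 3.36 CPM in its lymphocyte classes. Cx3cr1, a chemokine receptor used to drive Cre in tissue macrophages, was at 34.4 CPM in monocytes, 42.4 CPM in macrophages and 247 CPM in mature neutrophils of that library. Itgam was at 146 CPM in NK cells, near the 150 CPM of macrophages. S100a8 was at 8388 and 10036 CPM in mature neutrophils of the Runx3_fl-labelled and Runx3-labelled libraries, where Lyz2 was at 188 and 229 CPM. Zbtb46, a factor of conventional dendritic cells, was at 192 CPM in that class and 41.6 CPM in monocytes of the Runx3_fl-labelled library. Vav1, active throughout blood cells, was at 40.6 to 149 CPM in the 7 main classes of that library with over 1 cell.

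**Figure D4:**
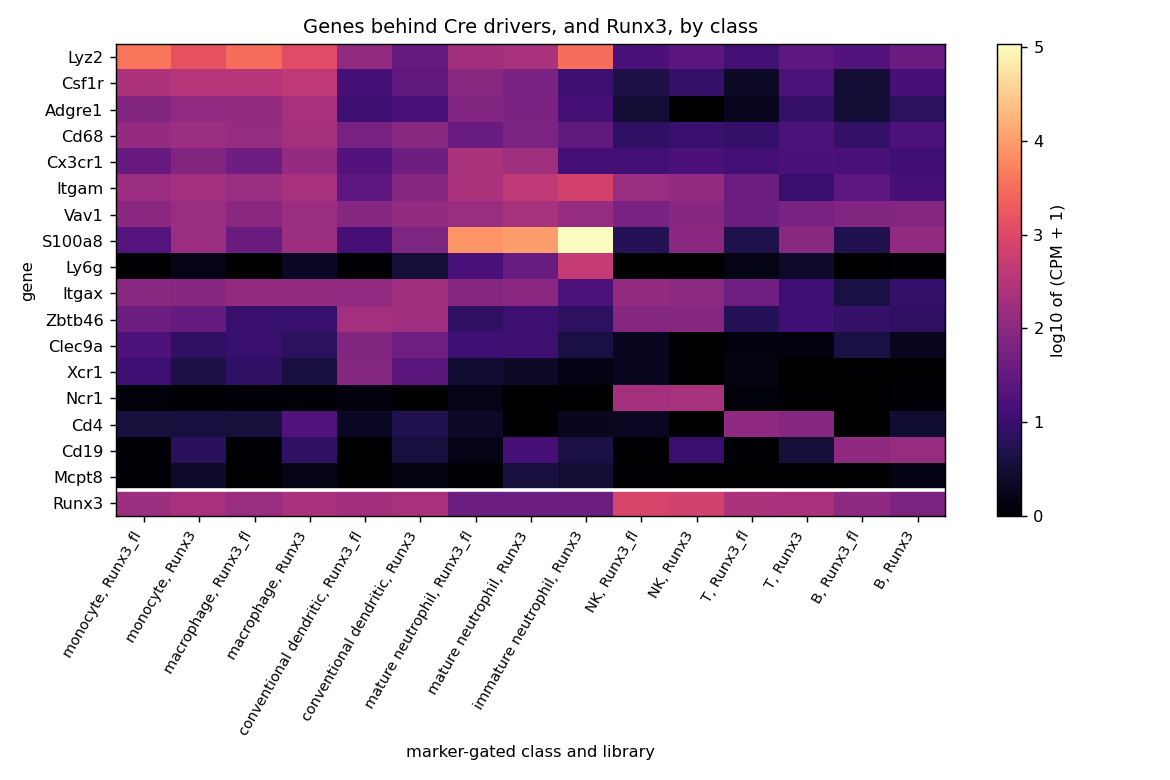
Heatmap of log10 of CPM plus 1 for 17 genes behind Cre drivers (rows) and, under the white line, Runx3, in each class and library (columns). Lyz2 is bright in monocytes, macrophages and immature neutrophils and dim in lymphocytes, S100a8 is brightest in neutrophils, and Runx3 is brightest in NK cells, where Lyz2 is dim.

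Runx3, the floxed gene, was highest in NK cells, which had little Lyz2. It stood at 866 CPM in NK cells of the Runx3_fl-labelled library and 709 CPM in those of the Runx3-labelled one, where Lyz2 was at 15.1 and 24.5 CPM. T cells had 239 and 233 CPM of Runx3. In the classes with the most Lyz2 it was at 163 and 218 CPM in monocytes, 149 and 230 CPM in macrophages, and 39.9 CPM in immature neutrophils of the Runx3-labelled library. The log2 ratio of Runx3 was 0.41 in monocytes and 0.62 in macrophages, so in these 2 classes its transcript was not lower in the Runx3-labelled library. Which exon is floxed is not given in the sources used here, and 3' reads can come from a transcript that has lost an exon. Runx3 (ENSMUSG00000070691, chromosome 4, 135120652 to 135177990, plus strand) overlaps the antisense gene Gm16224.

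Within monocytes Runx3 was lower in the cells with more Lyz2. It was at 245 CPM (229 to 262) in cells with no Lyz2 UMI at equal depth, 165 CPM (152 to 179) in those with 1 to 4 and 124 CPM (116 to 133) in those with 5 or more of the Runx3_fl-labelled library. The Runx3-labelled library had 256 CPM (242 to 271), 234 CPM (220 to 250) and 139 CPM (125 to 153). Macrophages with 5 or more had 130 CPM (118 to 142) and 171 CPM (148 to 197), below the 172 CPM (146 to 201) and 252 CPM (234 to 271) of those with none. In the immature neutrophil gate of the Runx3-labelled library, Runx3 was at 217 CPM (161 to 287) in the 32 cells with none. It was at 9.14 CPM (4.56 to 16.3) in the 71 cells with 5 or more. The 32 cells had far less Ngp and Cebpe and more H2-Ab1, as given above, and whether they are neutrophils was not tested.

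Genes of dendritic cells moved with these bins. In monocyte-gate cells of the Runx3_fl-labelled library, Zbtb46 was at 98.5 CPM with no Lyz2 UMI and 9.20 CPM with 5 or more, and Ccr7, the receptor of migrating dendritic cells, was at 488 and 134 CPM. In the Runx3-labelled one, Zbtb46 was at 56.0 and 7.55 CPM and Ccr7 at 202 and 48.2 CPM. The part of such cells in the Runx3 values was not tested beyond leaving out cells with a UMI of Flt3, Zbtb46 or Ccr7: the monocyte gate then had Runx3 at 127 and 194 CPM in the Runx3_fl-labelled and Runx3-labelled libraries, against 190 and 245 CPM in the cells left out.

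**Figure D5:**
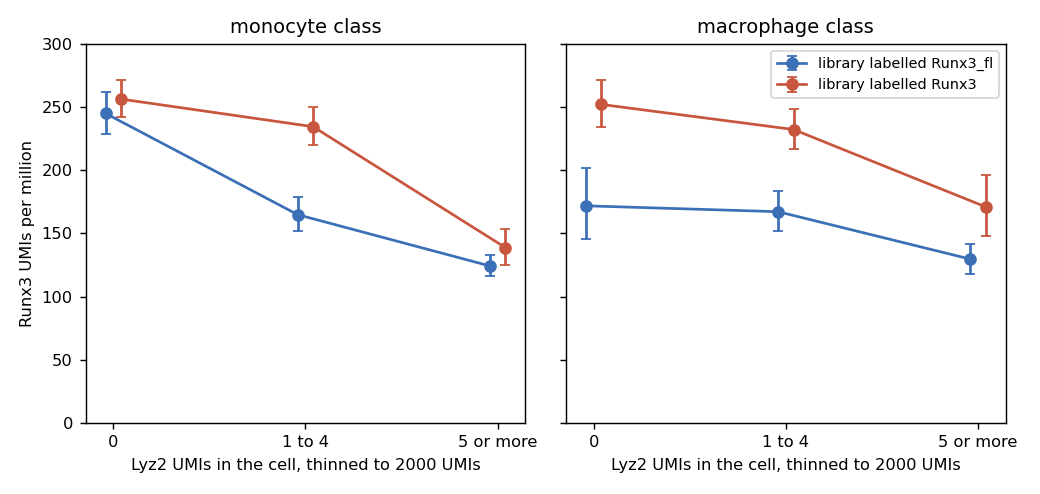
Runx3 in CPM by the number of Lyz2 UMIs in the cell after thinning to 2000 UMIs, in monocytes (left) and macrophages (right); points are sums over cells, bars are 95% Poisson intervals and colours are the libraries. In all 4 series the point at 5 or more is the lowest, between 124 and 171.

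Other genes, among them F10 and Csf1r of the gate, moved with Lyz2 in the monocyte class of the Runx3_fl-labelled library. From no Lyz2 UMI to 5 or more, Chil3, a chitinase-like protein of monocytes and immature neutrophils, went from 6.41 to 276 CPM, F10, the gene for coagulation factor X, from 65.3 to 478 CPM, and Csf1r from 97.9 to 340 CPM. H2-Ab1 went the other way, from 5014 to 3463 CPM. Among regulators of the myeloid lineage, Cebpb went from 225 to 777 CPM, while Irf8, a factor of dendritic cells and monocytes, went from 330 to 193 CPM.

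Among transcription factors of the myeloid lineage, Irf8 had log2 ratios of -0.45 in monocytes and -0.44 in macrophages. Of 12 myeloid transcription factors, 8 reached 50 CPM in monocytes and 8 in macrophages; none was lower by 2-fold or more in either class, beside 3.11% and 4.46% of all genes, so that a count of 0 among 8 is near the background. Cebpa and Cebpb were among those higher by 2-fold or more in both, beside 6.93% and 7.9% of all genes. Spi1, the gene for PU.1, had log2 ratios of 0.60 and 0.57 in monocytes and macrophages, and Cebpb had 1.17 and 1.14. The list's medians were 0.75 and 0.89, beside a median of 0.07 over all genes in each class. Of 21 antimicrobial genes, 5 reached 50 CPM in each class. Lyz2 alone was lower by 2-fold or more, S100a8 and S100a9 were higher by as much, beside the same shares of all genes, and Slpi, a protease inhibitor of secretions, had -0.84 and -0.91 without reaching 2-fold.

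The genes whose pattern over classes was most like that of Lyz2 were taken by Pearson correlation of log2 of CPM plus 1 over 16 points, the 8 classes in 2 libraries, as a description. Points of a library share its depth and free RNA. The highest were C3, the central complement protein, at 0.91, Prdx5, a peroxiredoxin, at 0.90, and App at 0.86; Gpx1, Hp, Pla2g7, Mgst1, Hacd4, Mitf and Fcgr4 followed. Without the point of 1 cell, the list was led by Lmo4 at 0.94, Pla2g4a at 0.93 and Clec12a, a lectin of myeloid cells, at 0.93, and 1 of the 10 genes, C3, was on both lists. For Lyz1 the highest were Nos2 at 0.93, Gab1 at 0.92 and Cfb, complement factor B, at 0.90, followed by Mmp14, Msr1, Flt1, Kctd19, F13a1, Mmp12 and Met. All 10 stayed when that point, which had 0 Lyz1 UMIs, was left out. The likeness to Nos2 is one between classes. Within macrophages, Lyz1 was at 11.8 CPM with a Nos2 UMI and 13.6 CPM without in the Runx3_fl-labelled library. The Runx3-labelled library gave 4.52 and 6.33 CPM, and intervals overlapped in each library. F13a1 is a supporting gene of the monocyte gate.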

How the data were processed

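Per the labels, the cells were captured with the 10x Genomics kit for 3' ends. The authors deposited filtered matrices of raw UMI counts per gene and cell; the file headers name Cell Ranger 7.1.0, and the submitters' processing notes name mm10 and Seurat 4. The deposited counts are whole numbers, not normalized. No doublet caller was run: the study's upper limit on genes was applied, and cells of more than 1 gate were set aside.

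UMIs were summed per class and library. Levels carry exact Poisson intervals, shares exact Clopper-Pearson intervals, and ratios that of an exact binomial, computed without the 1 CPM added to the ratio; a limit for a count of 0 uses 3 counts. Cells were thinned without replacement (random seed 7). The ratio step was tested on simulated data, and the thinning step on cells of the Runx3-labelled library. Members, gates, lists and alternatives were chosen with earlier results of these data known. Named were Lyz1, Lyz2, list members and the 10 genes most like each by correlation. The study's clustering was not used. The values of 1 list member are not reported here. The work was done in Python 3.11.15 with Biopython 1.88, matplotlib 3.10.9, pandas 2.3.3, scipy 1.17.1 and numpy 2.4.6.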

Additional observations from a re-analysis of the deposited data

Results flagged for a closer look

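The Lyz2 ratio between libraries had the opposite sign in mature neutrophils, at 0.28, to that in monocytes (-1.47), macrophages (-1.45) and dendritic cells (-1.91). The neutrophil ratio was small: its interval was 0.00 to 0.57 and the median of all genes in that class was 0.18. With the median gene set to 0 it was 0.10. The difference between classes was not tested, since each group has 1 library.

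Lyz2 was also present in cells that no comparison used. Cells of more than 1 gate had it at 706 CPM in the Runx3_fl-labelled library and 729 CPM in the Runx3-labelled one, and cells of no gate at 172 and 178 CPM, all above the B cell levels of 19.3 and 38.7 CPM. In the Runx3-labelled library, 439 of the 1543 mixed cells met both a monocyte or macrophage gate and a neutrophil gate, against 78 of 1386 in the Runx3_fl-labelled one.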

How the results depend on the processing

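No paired analysis was possible because each group has 1 library. The Lyz2 ratios in monocytes, macrophages and dendritic cells stayed below 0, and that in mature neutrophils above 0, under every alternative that gave a value. In monocytes the log2 ratio was -1.41 with the leading gene alone as gate, -1.44 with all deposited barcodes, -1.70 with at most 4000 genes, -1.69 as a mean over cells, -1.54 with the median gene set to 0, -1.50 with the B cell level subtracted and -1.72 without cells with Flt3, Zbtb46 or Ccr7, an alternative chosen after seeing the data. In macrophages it was -1.80 with the leading gene alone, -1.39 with 3 supporting genes, -1.65 with at most 4000 genes, -1.56 as a mean over cells, -1.52 with the median gene at 0 and -1.50 with the B cell level subtracted. In dendritic cells 3 supporting genes gave -0.73, a change by over 1.5 times, and the cause was not tested. With the leading gene alone, dendritic cells and mature neutrophils had under 50 cells in a library and gave no value. Subtracting the B cell level left none in dendritic cells of the Runx3-labelled library, so no ratio was given. For Lyz1 in monocytes a mean over cells gave -1.14 and 10 CPM added gave -0.74; in macrophages the leading gene alone gave -0.13, a mean over cells -0.54 and 10 CPM added -0.52. A larger added value shrinks the ratio of a low gene by construction.

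The share of Lyz2 UMIs in monocytes and macrophages was 37.7% with the leading gene alone, 75.7% with 3 supporting genes, 71.3% with all barcodes and 86.4% with at most 4000 genes in the Runx3_fl-labelled library, and 10.4%, 57.1%, 44.0% and 63.8% in the Runx3-labelled one. The cause of these shifts was not tested. Of 206 class levels recomputed, 149 stayed within the counting interval, as did 55 of 80 thinned shares of cells and 47 of 56 Lyz1 shares. With 1 library per group, animals, Xist level and library cannot be told apart from the group.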
